A study of Rattus norvegicus with 10 samples.

Results

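The genes described here are the Fxyd family of small sodium pump regulators, Fxyd1 to Fxyd7, with Atp1b1, the pump's beta 1 subunit, as measured in cell-free RNA of rat milk. All array probes that carry one of these 8 gene names were taken, which gave 9 of the 41012 probes on the array, 1 for each gene and a second for Fxyd5. Fxyd3 was put in the set because it was known to rise with the day of lactation, and Atp1b1 with earlier results of these data in view, so the changes of these genes are given as a description without a test. The question was whether the rest of the Fxyd family and the pump subunits rose with Fxyd3.

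The sodium pump, or Na,K-ATPase, moves sodium out of the cell and potassium in, and so feeds the sodium gradient that many other carriers draw on. It is built of a catalytic alpha subunit and a glycosylated beta subunit that the alpha subunit needs to reach the membrane. FXYD proteins are short membrane proteins, named for the motif they share, that bind the pump and tune its affinity for ions or its turnover in a tissue-specific way. In secretory epithelia such as the mammary gland, the pump lies mainly on the side that faces the blood, and milk leaves the cell low in sodium and high in potassium.

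Milk of 3 F344/N rat dams was collected at d 2, d 9 and d 16 postpartum and freed of fat, cells and casein, and the RNA of the resulting whey was put on 1 array per dam and day (n = 3 per day, 9 whey arrays). All dams were untreated adults of this inbred strain, bought pregnant, that nursed a litter and were milked after oxytocin under light anesthesia, and no group differed from the others in genotype or treatment. Serum was taken from the dams on d 21, and its RNA was mixed on 1 array, so serum has no replicate and no test. Each array received 100 ng of RNA, so a value is a share of the RNA loaded and not an amount per volume of whey, and fewer source cells cannot be told apart from less of a transcript per cell.

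The d 2 whey of dams 1 and 2 lay on slide 1, the d 2 whey of dam 3 with all d 9 whey on slide 2, and all d 16 whey with the serum pool on slide 3, which was scanned apart from the others. Day and slide can therefore be compared in part for d 9 against d 2, while d 16 and its slide cannot be told apart. The number of probes detected, that is well above background (a flag of the scanner software) with a processed signal above 20, ran from 8131 to 15585 on the whey arrays and was 3529 on the serum array. All 5 milk protein markers and all 8 epithelial markers on the array were well above background in every whey sample, whereas 7 of 13 leukocyte markers, Ptprc among them, were so in none.

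The 9 probes fell into clear classes of detection. The Fxyd3 probe and the first Fxyd5 probe were well above background on all 9 whey arrays, Fxyd2 on 8, Fxyd7 on 6, the second Fxyd5 probe on 2 and Atp1b1 on 1. Fxyd1, Fxyd4 and Fxyd6 were not well above background on any whey array. A probe entered the test between days when it was detected on at least 1 whey array, which 5 of the 9 probes did (Fxyd2, Fxyd3, the first Fxyd5 probe, Fxyd7 and Atp1b1), and 4 did not. Fxyd7 passed with a processed signal of 28.3 at most and Atp1b1 with 20.5 on a single array, just inside the limit of 20, whereas the second Fxyd5 probe, which reached 17.2, fell just outside. Fxyd2 passed on the 6 arrays of d 9 and d 16, so its entry rested on the days on which it was high, and Fxyd7 entered through d 9 and d 16 likewise. Adjusted p-values of Fxyd2 and Fxyd7 against d 2 are therefore those over all 41012 probes, tested without this filter.

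The probes are 60-base DNA oligos laid against the transcript. For Fxyd1, Fxyd2 and both Fxyd5 probes, the 60 bases cover more than 60 bases of the genome and therefore join separate stretches of the gene, as across an intron, and these sequences are shown because they tell what the Fxyd2 and Fxyd5 values can and cannot count. Capitals in the first pair mark the run of 10 bases that the Fxyd1 and Fxyd2 probes share, which was the longest run in common among the 35 pairs of probes of different genes in the set. Capitals in the second pair mark the 41 bases of each Fxyd5 probe whose reverse complement lies in the other.
Fxyd1: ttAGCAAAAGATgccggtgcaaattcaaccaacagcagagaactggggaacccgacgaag
Fxyd2: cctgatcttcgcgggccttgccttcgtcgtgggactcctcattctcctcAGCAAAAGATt
Fxyd5 probe 1: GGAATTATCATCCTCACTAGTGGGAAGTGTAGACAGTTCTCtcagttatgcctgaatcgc
Fxyd5 probe 2: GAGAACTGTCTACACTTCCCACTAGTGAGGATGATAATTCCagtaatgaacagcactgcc
The files place the Fxyd1 probe at chr1:86095744-86096982 on the minus strand, the Fxyd2 probe at chr8:48384378-48385363 on the plus strand and the first Fxyd5 probe at chr1:86076539-86078888 on the minus strand (rat build rn4). The second Fxyd5 probe lies at chr1:86076558-86078907 on the plus strand, so it reads the strand opposite to the gene. With no more than 10 bases in common, no pair of probes of different genes in this set was near-identical.

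Fxyd3, which regulates the pump and is best known from epithelia, was higher at each later day sampled. Its probe lies at chr1:86113801-86113860 on the minus strand. The normalized signal, on the log2 scale, was 9.43, 9.08 and 9.18 in dams 1, 2 and 3 at d 2, 11.51, 11.60 and 11.26 at d 9, and 12.27, 12.09 and 12.17 at d 16. No values of any 2 days overlapped, and each dam was higher at each later day. Against d 2, the mean log2 change was 2.23 at d 9 and 2.95 at d 16 (7.72-fold), and d 16 exceeded d 9 by 0.72, each with an SE of 0.14. Before normalization the processed signal was 355 to 734 at d 2, 2622 to 9839 at d 9 and 4460 to 7605 at d 16. These values chose the gene and are therefore a description.

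**Figure D1:**
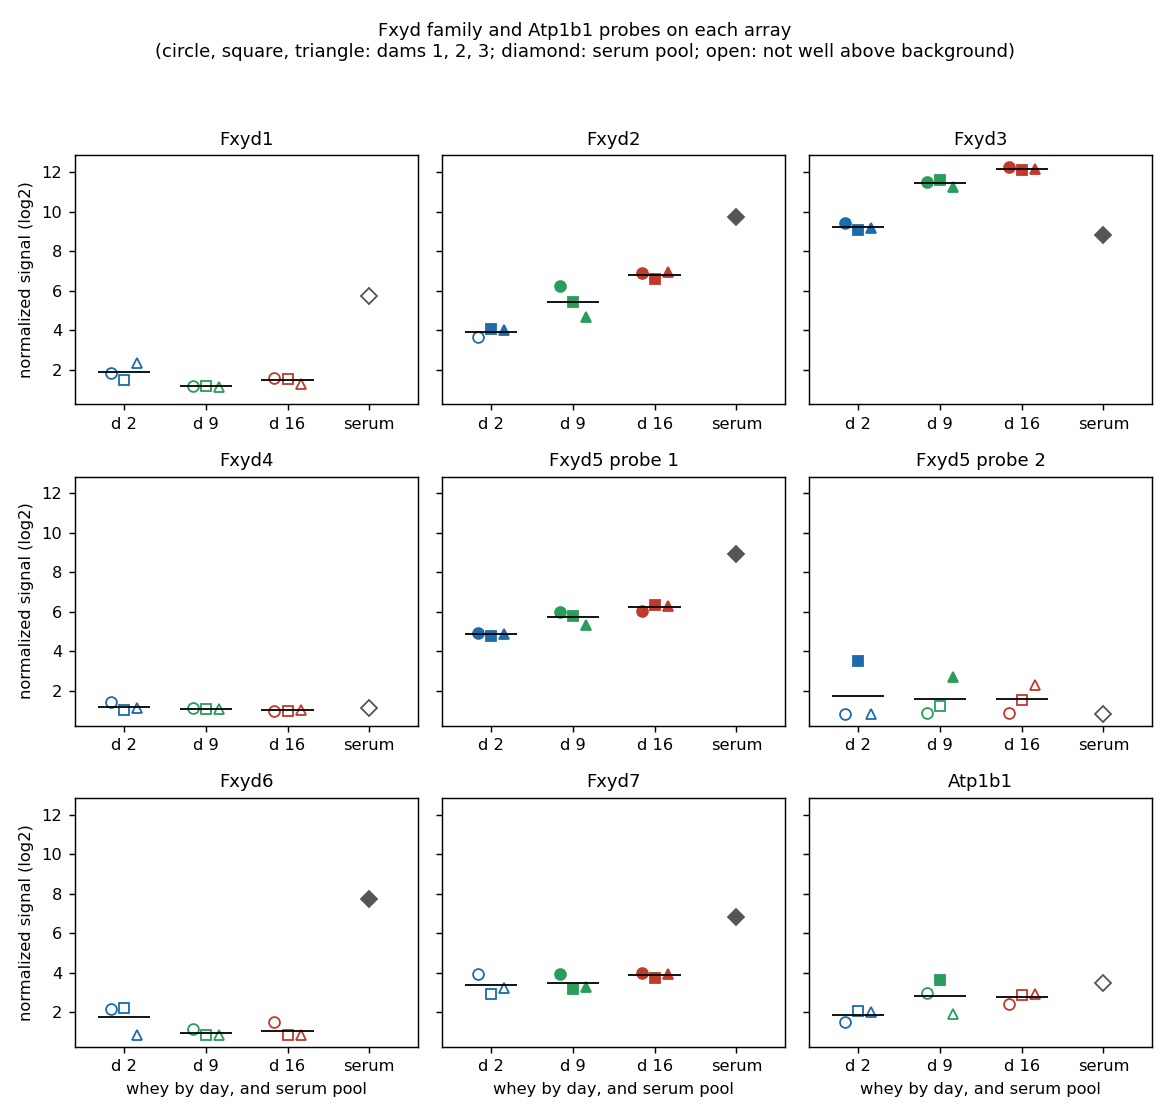
Normalized signal (log2, shared vertical axis) of the 9 Fxyd and Atp1b1 probes on the 9 whey arrays by day and on the serum pool; symbols mark the dams, horizontal bars the mean of 3 dams, and open symbols values that were not well above background. Fxyd3, Fxyd2 and Fxyd5 probe 1 step up from d 2 to d 16 without overlap, while Fxyd1, Fxyd4 and Fxyd6 carry open symbols in all whey.

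Besides Fxyd3, the family members that rose in whey were Fxyd5 and, at d 16, Fxyd2. With all 41012 probes tested, so that no probe entered through its high days, 1 of the 7 probes of the other 6 Fxyd genes was higher at d 9 than at d 2 by limma (adjusted p under 0.05), the first Fxyd5 probe. At d 16 there were 2, this probe and Fxyd2, and none fell on either day. For comparison, 5.97% of all 41012 probes passed for d 9 against d 2, 3.73% as higher at d 9, and 10.6% passed for d 16 against d 2, 5.96% as higher at d 16. Of the 16849 probes that passed the filter, 17.6% passed the test for d 9 against d 2, 11.3% as higher at d 9, and 28.5% passed for d 16 against d 2, 16% as higher at d 16. With d 16 set against d 9, where 1.42% of these probes passed by limma, 0 of the 3 family probes other than Fxyd3 did. The Tukey-Kramer test called 0 of all 16849 probes there and so tells nothing about the family. At an unadjusted limma p under 0.05, 2 of the 3 family probes passed (Fxyd2 and Fxyd5), beside 18.7% of all probes tested. For the first Fxyd5 probe all values of a later day lay above those of an earlier one, which 24.2% of all probes tested showed at d 9 over d 2, 25.9% at d 16 over d 2 and 11.7% at d 16 over d 9. The median log2 change of all probes tested against d 2 was 0.11 at d 9 and 0.04 at d 16, and that of d 16 against d 9 was -0.06.

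Fxyd2, the gamma subunit of the pump and best known from the kidney tubule, had log2 signals of 3.64, 4.06 and 4.01 at d 2, 6.22, 5.45 and 4.66 at d 9 and 6.91, 6.61 and 6.92 at d 16. The days did not overlap, dam 1 at d 2 was not well above background, and the d 9 values spread more widely (SD 0.78) than those of d 2 (SD 0.23) and d 16 (SD 0.17). Against d 2, the log2 change was 2.91 ± 0.36 (SE) at d 16, or 7.53-fold, and passed over all probes without the filter (limma adjusted p 0.00431). The log2 change of 1.54 ± 0.36 at d 9 did not pass there (limma adjusted p 0.0565). By dam, the difference of d 16 from d 2 was 3.27, 2.55 and 2.92, whereas that of d 9 from d 2 was 2.59, 1.39 and 0.65. From d 9 to d 16 the log2 change of 1.37 ± 0.36 did not pass (limma adjusted p 0.110), although all 3 dams were higher at d 16.

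With each whey array left out in turn and no filter, the rise of Fxyd2 to d 16 passed in all 9 fits (limma adjusted p 0.00244 to 0.0224). The change to d 9 passed in 1, without d 9 dam 3 (limma adjusted p 0.0189), and otherwise had adjusted p up to 0.154. Leaving out an array of the day outside a comparison left its log2 change as it was and altered the estimate of the spread alone. Such fits are also among the alternatives counted below, and no alternative parts d 16 from its slide. The size of the Fxyd2 changes depended on the background correction. Normexp correction with an offset of 50 gave a log2 change of 1.14 at d 16 in place of 2.91, and of 0.43 at d 9 in place of 1.54. With slide as a fixed block the log2 change to d 9 was 1.44. On slide 2 alone, the d 9 values of 4.66 to 6.22 all lay above the d 2 value of 4.01.

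Fxyd5, also called dysadherin, modulates the pump and is known to weaken contacts between epithelial cells. Its first probe had log2 signals of 4.94, 4.79 and 4.86 at d 2, 5.99, 5.81 and 5.36 at d 9 and 6.04, 6.34 and 6.29 at d 16. The days again did not overlap, and the lowest d 16 value was 0.05 above the d 9 value of the same dam. Against d 2, the log2 change was 0.85 ± 0.18 (SE) at d 9 (limma adjusted p 0.0181) and 1.36 ± 0.18 at d 16 (2.56-fold, limma adjusted p 0.00199), and d 16 exceeded d 9 by 0.50 ± 0.18 (limma adjusted p 0.195). The log2 changes of Fxyd5 were smaller than those of Fxyd2 in the same samples, though this difference between genes was not tested.

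The rise of Fxyd5 to d 16 passed in 18 of 19 alternatives and missed with scaling to the spike-in controls (log2 change 2.00, limma adjusted p 0.0810). Calls over all 16849 probes went from 4801 to 764 with that scaling, and from 2969 to 146 at d 9 with slide as a fixed block. With normexp correction the rise of Fxyd5 to d 16 was 0.63 and passed. The rise to d 9 passed in 15 of 20 and was lost without d 2 dam 2 (limma adjusted p 0.0592), without d 9 dam 2 (0.0665), in the fit on these days alone (0.0516), in the methods' Tukey-Kramer test (0.0664) and with slide as a fixed block (log2 change 0.86, limma adjusted p 0.294). On slide 2 alone, the 3 d 9 values of 5.36 to 5.99 lay above the single d 2 value of 4.86. The second Fxyd5 probe, on the opposite strand, was well above background in d 2 dam 2 and d 9 dam 3 alone, with processed signals of 9.36 and 17.2, and was not tested. These lone arrays fell on different days and dams.

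Fxyd7, which is known from neurons, was dim. Its probe lies at chr1:86086158-86086217 on the minus strand and was well above background on no d 2 array and on all arrays of d 9 and d 16. The log2 signals were 3.91, 2.93 and 3.22 at d 2, 3.94, 3.18 and 3.27 at d 9 and 3.98, 3.72 and 3.93 at d 16, and the days overlapped. Against d 2, the log2 change was 0.11 ± 0.29 (SE) at d 9 (limma adjusted p 0.864 without the filter) and 0.53 ± 0.29 at d 16 (limma adjusted p 0.364). A change of Fxyd7 was not detectable at these signals.

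Fxyd1, or phospholemman, which regulates the pump in heart and skeletal muscle, was not well above background on any array, and its processed signals in whey ran from 2.08 to 5.41. Fxyd4, the kidney's corticosteroid-induced family member, lies at chr4:154233828-154233887 on the minus strand and had processed signals of 1.92 to 2.47 in whey. Fxyd6, known from the nervous system and inner ear, lies at chr8:48371770-48371828 on the plus strand and had processed signals of 1.62 to 3.63 in whey. For these genes no change between days can be given.

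**Figure D2:**
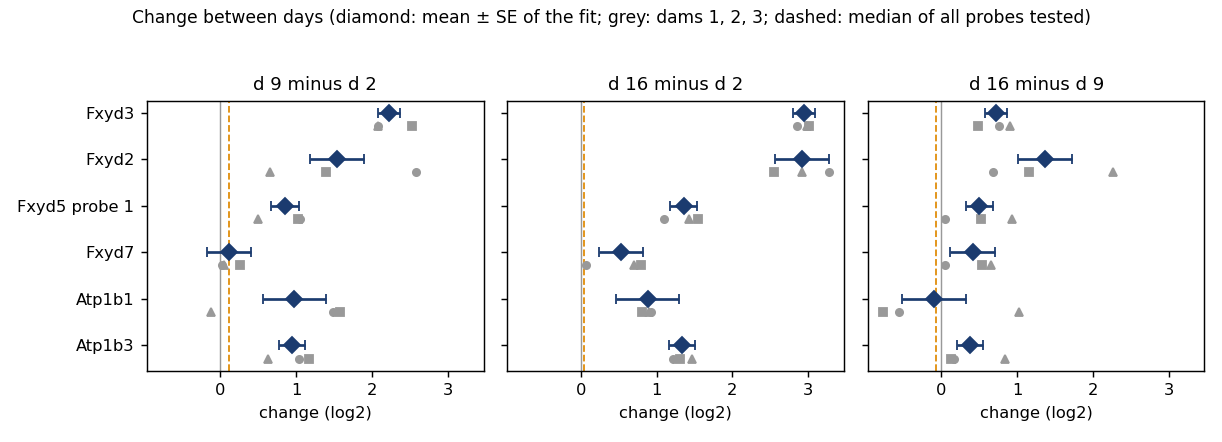
Log2 change between days of 6 Fxyd and pump probes that could be tested; diamonds with bars are the mean change ± SE of the limma fit over 9 whey arrays, grey symbols the change in each dam, and the dashed line the median of all 16849 probes tested. From d 2 to d 16 Fxyd3 and Fxyd2 lie near 3, Fxyd5 probe 1 and Atp1b3 between 1.33 and 1.36, and Fxyd7 at 0.53.

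Of the pump subunits reported here, Atp1b3 rose. Besides Atp1b1, these were 4 genes with 6 probes (Atp1a4, Atp1b2, Atp1b3 and Atp1b4), of which 1 probe, that of Atp1b3, could be tested. It was higher than at d 2 on both later days. With d 16 set against d 9 it did not pass by limma, nor at an unadjusted limma p under 0.05. The Tukey-Kramer test called 0 of all 16849 probes there.

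Atp1b3, the beta 3 subunit, was well above background on all 10 arrays. Its log2 signal was 7.34, 7.18 and 7.15 at d 2, 8.38, 8.35 and 7.78 at d 9 and 8.55, 8.49 and 8.62 at d 16, and the days did not overlap. Against d 2, the log2 change was 0.95 ± 0.17 (SE) at d 9 (limma adjusted p 0.0115) and 1.33 ± 0.17 at d 16 (2.52-fold, limma adjusted p 0.00191), and d 16 exceeded d 9 by 0.38 ± 0.17 (limma adjusted p 0.287). All 3 dams were higher at each later day. The rise to d 9 passed in 19 of 20 alternatives and missed with slide as a fixed block (log2 change 1.02, limma adjusted p 0.245). The rise to d 16 passed in 18 of 19 and missed with spike-in scaling (log2 change 1.92, limma adjusted p 0.0993). Under these settings calls over all 16849 probes went from 2969 to 146 at d 9 and from 4801 to 764 at d 16. Within slide 2, the d 9 values of 7.78 to 8.38 lay above the d 2 value of 7.15. The Atp1b3 probe lies at chr8:101406203-101406262 on the minus strand.

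Atp1b1, the beta subunit most widely found in epithelia, was at the edge of detection in whey. Its probe, at chr13:80214142-80214201 on the minus strand, gave log2 signals of 1.48, 2.07 and 2.01 at d 2, 2.97, 3.65 and 1.88 at d 9 and 2.41, 2.88 and 2.91 at d 16. Of these 9 values, d 9 dam 2 alone was well above background, so the other 8 are bounds and the differences between day means (0.98 for d 9 and 0.88 for d 16 against d 2, and -0.10 for d 16 against d 9) are those of a probe near its floor. With normexp correction the first pair of differences shrank to 0.08 and 0.03. The beta subunit that was well measured in whey was therefore Atp1b3 and not Atp1b1.

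Atp1a4, a catalytic subunit known from sperm, was not well above background in whey. The same held for the 3 probes of Atp1b2, the beta subunit of glia and neurons, and for Atp1b4, which in placental mammals is no longer a pump subunit. Processed signals of these 5 probes did not exceed 6.91 on any whey array. When all 41012 probes were tested without a filter on low values, Atp1a4 was called lower at d 16 than at d 2 (log2 change -1.50, limma adjusted p 0.0412), but no whey array had it well above background and no level or fold can be given.

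Tested for any difference among the 3 days (limma F test), the change passed for Fxyd5 (adjusted p 0.00492) and Atp1b3 (0.00439), against 25.6% of all probes tested. Fxyd7 did not pass (limma F test, adjusted p 0.337). Fxyd2 entered this test through its higher days, so its value is not given.

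**Figure D3:**
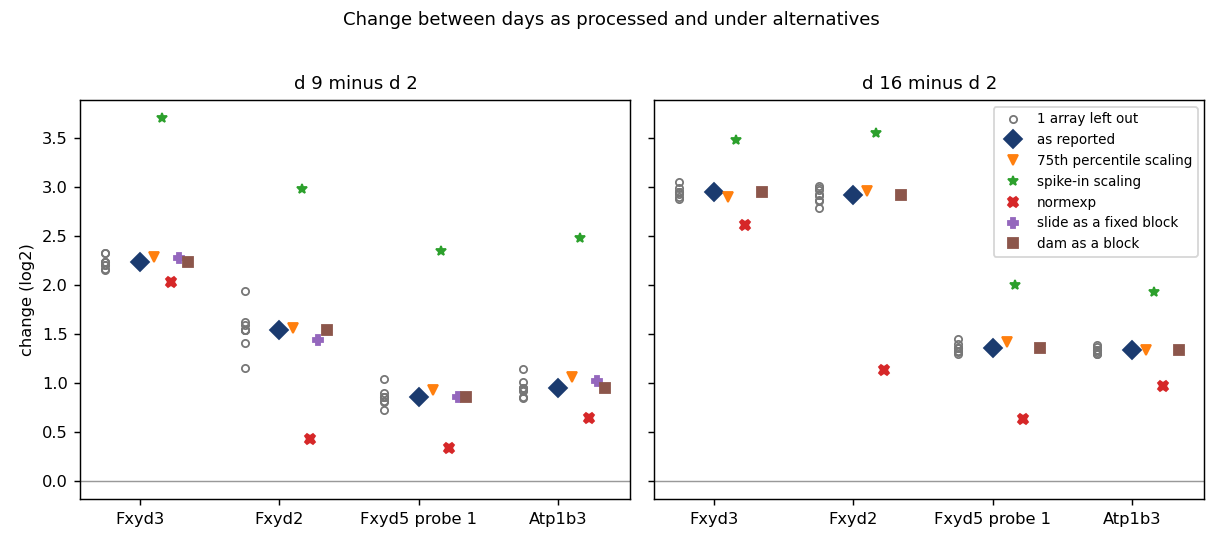
Log2 change of Fxyd3, Fxyd2, Fxyd5 probe 1 and Atp1b3 from d 2 to d 9 (left) and to d 16 (right), as reported (diamonds) and under other scalings, background correction, blocks and with 1 array left out (open circles). Every value lies above 0, the spike-in values highest and the normexp values lowest, from 0.33 for Fxyd5 probe 1 at d 9 to 3.70 for Fxyd3 at d 9.

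Scaling to the spike-in controls moved all genes together. It put the median log2 change of all probes tested against d 2 at 1.52 for d 9 and at 0.59 for d 16, and that of d 16 against d 9 at -0.93. On that scale Fxyd3 changed by 3.70, 3.48 and -0.22, so its step from d 9 to d 16 turned in sign while it stayed above the median of all probes. The rises of Fxyd2 (3.55), Fxyd5 (2.00) and Atp1b3 (1.92) to d 16 also lay above that median.

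In serum the family looked different. On quantile-normalized values, Fxyd2 was 9.72 in the serum pool against 3.64 to 6.92 in whey (median 5.45), the first Fxyd5 probe 8.93 against 4.79 to 6.34 (median 5.81) and Fxyd7 6.80 against 2.93 to 3.98 (median 3.72). Each lay above every whey array. Fxyd3 was lower in serum, at 8.83, than on any whey array (9.08 to 12.27, median 11.51), with a processed signal of 42.8 against 355 to 9839 in whey. Fxyd6 was well above background in serum alone, at 7.70, and was at least 26.2-fold higher there than the whey mean at its floor.

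By these values 4 of the 9 probes (Fxyd2, the first Fxyd5 probe, Fxyd6 and Fxyd7) were well above background in serum and more than 4-fold higher there than the whey mean. Of the 21145 probes well above background on at least 1 array, 15.7% were more than 4-fold higher. Fxyd1 and Fxyd4 are not among the 21145, and Fxyd1 was not counted although its serum value was higher by 4.21 on the log2 scale. The count rests on 1 array on which few probes were detected, and on the scaling. With scaling to the 75th percentile the log2 difference of serum from whey was 3.44 for Fxyd2, 2.43 for Fxyd5, 2.69 for Fxyd7 and -3.06 for Fxyd3. With spike-in scaling it was 0.62 for Fxyd2, -0.38 for Fxyd5, -0.12 for Fxyd7 and -5.88 for Fxyd3, and then Fxyd6 alone was more than 4-fold higher by its measured values, beside 3.41% of all. With whey at its floor, the log2 difference of Fxyd6 fell from 4.71 to 1.27 on that scale. Fxyd3 was lower in serum, and Fxyd2 and Fxyd6 were higher, under the 4 scalings and corrections tried, while the direction for Fxyd5 and Fxyd7 turned.

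**Figure D4:**
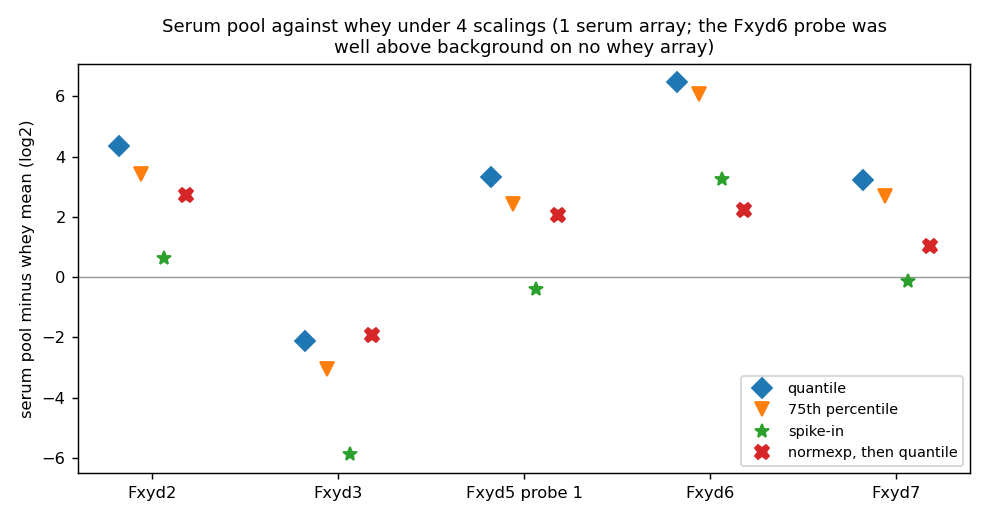
Log2 difference of the serum pool (1 array) from the mean of 9 whey arrays for the 5 Fxyd probes that were well above background in serum, under 4 scalings. Fxyd3 lies below 0 throughout, from -1.92 to -5.88, Fxyd2 and Fxyd6 above 0, and Fxyd5 probe 1 and Fxyd7 cross 0 with spike-in scaling; the Fxyd6 whey values are those of a probe below background.

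Of the pump subunits reported, Atp1b3 had a log2 signal of 7.99 in serum against 7.15 to 8.62 in whey with quantile scaling, and a processed signal of 24.8 against 81.6 to 876. The log2 difference of serum from the whey mean was 0.01 with quantile scaling, -0.88 with 75th percentile scaling and -3.70 with spike-in scaling, so its direction rested on the scaling. Atp1a4 (6.17) and 1 of the 3 Atp1b2 probes (6.41) were well above background in serum and in no whey, with processed signals under the limit of 20. With whey at its floor, serum was higher by at least 3.18 and 3.42 on the log2 scale with quantile scaling, and by 0.04 and 0.22 with spike-in scaling. The other 2 Atp1b2 probes were not well above background in serum, so the probes of this gene disagreed. Of the Fxyd probes, those of Fxyd2, Fxyd3, Fxyd6 and Fxyd7 and the first of Fxyd5 were well above background in the serum pool, on 1 array without a replicate. Among these, Fxyd6 alone was so on no whey array, while Fxyd7 was on 6.

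Markers of other cells were read in the same samples. The summed normalized signal of 4 red cell markers was 63.1 to 84.4 at d 2, 95.6 to 143 at d 9, 189 to 297 at d 16 and 306149 in serum, with Hbb and Alas2 not well above background in whey. The 1 red cell marker that could be tested was higher than at d 2 by limma at d 9 (log2 change 1.02) and d 16 (2.12). Of all probes tested, 11.3% and 16% were higher on these days. The sum of 13 leukocyte markers was 335 to 432 at d 2, 191 to 400 at d 9, 242 to 627 at d 16 and 10829 in serum. Of the 5 that could be tested, 2 were higher and 1 lower at d 16 than at d 2 (median log2 change 1.84). Of all probes tested, 16% were higher and 12.4% lower there. The sum of 5 myoepithelial markers was 218 to 324 at d 2, 76.3 to 401 at d 9 and 394 to 615 at d 16, and 0 of the 4 tested passed by limma (median log2 change to d 16 1.05), with Oxtr not well above background in whey. Of the endothelial and of the adipocyte markers 1 each could be tested, and 0 passed. Of the milk protein genes, 4 of 5 rose from d 2 to d 16, beside 16% of all probes tested. Of the epithelial markers, 5 of 8 were lower than at d 2 on each later day, beside 6.36% of all probes at d 9 and 12.4% at d 16. The part of these in the rises of Fxyd2, Fxyd5 and Atp1b3 was not tested.

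Other genes of ion and water transport, chosen by name, did not move one way. Of 15 genes on the array listed as regulators of ion pumps and of sodium transport, 10 could be tested. Among the 10 tested, 2 were higher and 1 lower at d 9 than at d 2, and 2 higher and 0 lower at d 16. The median log2 change of the 10 was 0.08 and 0.21. Of 30 other carriers, channels and associated proteins, 14 could be tested. Among the 14 tested, 2 were higher and 2 lower at d 9, and 2 higher and 3 lower at d 16, with medians of -0.02 and -0.12. With d 16 set against d 9 0 of these 24 genes passed by limma, beside the 1.42% of all probes, and 2 at an unadjusted p under 0.05, beside 18.7%, while 3 related proton pumps (Atp4a, Atp4b and Atp12a) did not reach the test. These counts include Sgk3, Slc34a2 and Slc12a4, which had no array past the filter on the day on which they were lower. Without these, 1 regulator was higher and 1 lower at d 9, and 1 higher and 0 lower at d 16, and 1 carrier was higher and 1 lower at d 9, and 1 higher and 2 lower at d 16. Adjusted p-values of Sgk3, Slc34a2 and Slc12a4 are therefore those over all 41012 probes. Of all 16849 probes tested, 11.3% were higher and 6.36% lower at d 9 than at d 2, and 16% higher and 12.4% lower at d 16. The list counts are over these filtered probes, whereas those of the Fxyd family above were over all 41012. The 7 calls at d 9 over both lists became 0 with slide as a fixed block, where calls over all 16849 probes went from 2969 to 146. The 7 at d 16 became 4 with spike-in scaling, where calls over all probes went from 4801 to 764.

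Sgk1, a kinase that aldosterone and glucocorticoids induce and that raises sodium transport, had log2 signals of 5.99, 6.18 and 6.71 at d 2, 7.33, 8.95 and 8.05 at d 9 and 7.33, 7.84 and 7.59 at d 16. It was higher than at d 2 at d 9 (log2 change 1.82, limma adjusted p 0.0199) and at d 16 (1.29, limma adjusted p 0.0432). Its relative Sgk3 was the other regulator called higher at d 9 and d 16 (limma adjusted p 0.0197 and 0.0188), but d 2 whey had it on no array above background. Sgk3 was at least 1.17-fold higher at d 9. At d 16 the value of dam 1 was not well above background either, so no bound is given for that day. Stk39, the kinase SPAK that activates sodium-chloride carriers, fell by 0.56 at d 9 on the log2 scale (limma adjusted p 0.0416, and 0.0514 with dam as a block), and its change to d 16 did not pass (limma adjusted p 0.146).

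Of the 3 sodium-dependent phosphate carriers on the list, Slc34a2 and Slc20a1 were called higher, and Slc20a2 was not well above background in whey. These 2 calls rest on different sets of probes. For comparison, 11.3% of the 16849 filtered probes were higher at d 9 and 16% at d 16. Over all 41012 probes these shares were 3.73% and 5.96%. Slc34a2, which takes up phosphate with sodium at the milk-facing side of the mammary cell, had log2 signals of 4.52, 3.67 and 3.95 at d 2, 5.32, 6.63 and 5.76 at d 9 and 6.07, 5.89 and 5.97 at d 16. It rose by 1.86 to d 9 and by 1.93 to d 16 (limma adjusted p 0.0276 and 0.0157). Slc20a1, a phosphate carrier of most cells, was higher by 0.74 and 0.61 (limma adjusted p 0.0239 and 0.0311 over the filtered probes). Over all 41012 probes, the set used for Slc34a2, Slc20a1 passed at d 9 (limma adjusted p 0.0406) and not at d 16 (limma adjusted p 0.0523).

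Aqp5, a water channel of glands, fell. Its log2 signals were 7.13, 7.06 and 6.71 at d 2, 4.80, 4.72 and 4.29 at d 9 and 3.53, 4.25 and 3.66 at d 16, with no overlap between days, a log2 change of -2.36 to d 9 (limma adjusted p 0.00182) and -3.16 to d 16 (limma adjusted p 0.000288). Of the potassium-chloride carriers, Slc12a7 fell by 2.91 to d 16 on the log2 scale (limma adjusted p 0.0422), with a d 16 spread from 6.39 to 10.27. Among the whey arrays Slc12a4 was well above background at d 2 alone, and it was so in the serum pool as well (log2 signal 8.83). In whey Slc12a4 was at least 11.2-fold lower at d 9 and 10.5-fold lower at d 16 than at d 2 (limma adjusted p 0.00191 and 0.000752). Sgk3 and Slc12a4 are named to complete their counts, after their values were seen. Of the epithelial sodium channel genes, Scnn1b and Scnn1g did not pass in either comparison with d 2. Scnn1a, the third, was too dim for the filter and was well above background on 0, 1 and 3 arrays at d 2, d 9 and d 16, with mean log2 signals of 1.45, 2.66 and 3.38. Over all 41012 probes Scnn1a was called higher than at d 2 on both later days (limma adjusted p 0.0224 and 0.00281). However, no d 2 array had it well above background. The lowest signals well above background on the d 2 arrays were 4.11, 3.29 and 2.98 on the log2 scale. No level at d 2 and no fold can therefore be given for Scnn1a.

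**Figure D5:**
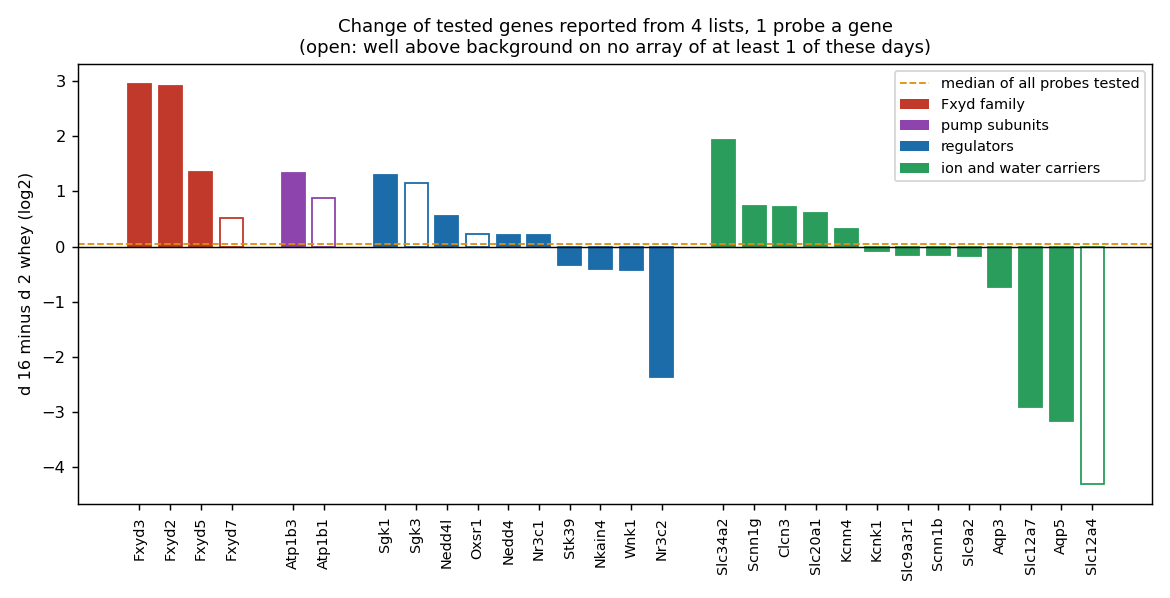
Log2 change from d 2 to d 16 whey of the tested genes reported from 4 lists, 1 probe per gene; open bars mark genes well above background on no array of at least 1 of these days, whose bar depends on values below background, and the dashed line the median of all probes tested (0.04). The Fxyd family bars point up, but Fxyd3 was chosen for its rise, and Fxyd2 and Fxyd7 entered through the later days. Fxyd1, Fxyd4 and Fxyd6 could not be tested and have no bar, so the direction of the family is not a result. Regulators and carriers lie on both sides of 0, from Slc34a2 at 1.93 to Slc12a4 at -4.30.

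The genes whose day pattern was most like that of a family member were sought among 6054 genes measured on all 9 whey arrays, as a description, since all points share the same dams, slides and scaling. For Fxyd3 the highest Pearson r was with Mal2 (0.998, n = 9 arrays), a protein of membrane traffic in polarized epithelia, followed by the glutamate carrier Slc1a2 (0.993), RGD1560687 (0.993), Enpp2 (0.993), which encodes autotaxin, and LOC682888 (0.992). For Fxyd5 it was with Rnasek (0.995), the proton pump subunit Atp6v0b (0.992), Tyrobp (0.987), an adaptor of immune cells, Csn2 (0.986), which encodes beta-casein, and the chaperone Hspa5 (0.985). The fiftieth gene in order still had an r of 0.975 with Fxyd3 and 0.965 with Fxyd5, so these patterns were shared widely. With 75th percentile scaling, 4 of the 5 genes for Fxyd3 and 3 of the 5 for Fxyd5 were again among the 5 highest.

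Fxyd5, Fxyd7, Fxyd1 and Fxyd3 lie in this order within 37.3 kb of chromosome 1, and Fxyd6 and Fxyd2 within 13.6 kb of chromosome 8 (rn4). On chromosome 1 the log2 difference of d 16 from d 2 was 1.36 for Fxyd5 and 2.95 for Fxyd3 at the ends, while Fxyd7 between them did not pass, and Fxyd1 and the adjacent Lgi4 were not well above background on any whey array. Hpn, which encodes the membrane protease hepsin and lies beyond Fxyd3, was higher at d 16 than at d 2 by 0.84 (limma adjusted p 0.0147 over all 41012 probes). On chromosome 8 Fxyd2 rose, and Fxyd6 beside it was not well above background in whey.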

How the data were processed

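Groups and dam numbers came from the sample titles. Per the file headers, the deposited processed signal is a background-subtracted, linear intensity made by the authors with Agilent Feature Extraction 9.5.3.1 and not normalized between arrays; mean and background intensity columns served the normexp alternative. A deposited quantile-normalized log2 table was not used, since its 10 sample columns match no label. Here log2 processed signals were quantile normalized over 10 arrays, flagged outlier spots were masked (saturated spots numbered 0), spots averaged, and 16849 probes well above background with a signal above 20 on at least 1 whey array were tested with limma 3.58.1 (R 4.3.3) over 9 whey arrays, two-sided, Benjamini-Hochberg adjusted. Probes with no array past this filter on the lower day were judged over all 41012 probes instead, a choice made after seeing the data. Methods were checked on simulated data. Adjusted p-values are limma's unless another test is named, and the 3 arrays per day limit the precision. Bounds set dim probes at each array's lowest signal well above background.

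The members and gene lists were chosen with earlier results of these data known. From the other lists, genes called against d 2 without overlap and well above background on all 6 arrays were named, at most 4 each way, and for members measured on all whey arrays the 5 genes of highest r. The sample titles give the same dam numbers on each day, and dams were taken as paired from these; same-dam deviations from the day means correlated at -0.02 to 0.22, over 0.1 in 5 of 9 pairs. Alternatives covered scaling, background correction, filters, dam and slide blocks, the days fitted, the methods' Tukey-Kramer test and each whey array left out. Some pump subunits are not reported here.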

Additional observations from a re-analysis of the deposited data

How the results depend on the processing

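Among the filtered probes, 2 of the family besides Fxyd3 passed between d 2 and d 9, Fxyd5 and Fxyd2, which had entered through its higher days. This count was 1 with normexp correction, 1 without a filter, and 0 with slide as a fixed block, in the fit on the 2 days compared only and with the methods' Tukey-Kramer test, and 0 to 2 with 1 array left out. From d 2 to d 16 it was 1 with spike-in scaling, and from d 9 to d 16, where it was 0, it became 2 with normexp correction, 1 with a minimum signal of 100 and 0 to 1 with 1 array left out (Fxyd2 passed without d 9 dam 1, limma adjusted p 0.0464). The pump count of 1 became 0 from d 2 to d 9 with slide as a fixed block, and from d 2 to d 16 it became 0 with spike-in scaling and 2 without a filter. The count of other transport genes, 7 from d 2 to d 9, became 0 with slide as a fixed block, 3 with the Tukey-Kramer test and 4 without d 2 dam 2 (4 to 7 with 1 array left out). From d 2 to d 16 the 7 became 4 with spike-in scaling, 4 with the Tukey-Kramer test and 4 without d 2 dam 1, d 16 dam 2 or d 16 dam 3 (4 to 7 with 1 array left out). Over all 16849 probes, calls between d 2 and d 9 went from 2969 to 146 with slide as a fixed block. They were 1602 in the fit on these days alone and 1297 with the Tukey-Kramer test. Calls between d 2 and d 16 went from 4801 to 764 with spike-in scaling and to 2687 with the Tukey-Kramer test. With spike-in scaling the count of probes over 4-fold higher in serum fell from 4 to 1, and the serum difference turned to -0.38 for Fxyd5 and -0.12 for Fxyd7. Of the 5 genes most like Fxyd5, 3 were shared with 75th percentile scaling. The replicate block for the dam changed no call of the family or of Atp1b3, with limma adjusted p of 0.0339 for Fxyd5 from d 2 to d 9. Among other transport genes it lost Stk39 and gained Nr3c2 (log2 change -1.98, limma adjusted p 0.0344) at d 9, and at d 16, against d 2, it gave 9 calls in place of 7, with Nr3c2 (-2.37, 0.0156) gained. Nr3c2 is named after its values were seen. Quantile normalization of the whey arrays alone, which changed no call of the family or pump, the unfiltered fits with 1 array left out and the serum scalings of pump subunits were added after seeing the data. The causes were not tested.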
